A study of Canis lupus familiaris with 6 samples.

Results

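The comparison described here set MDCK cells that received 5-AZA after TGFb against MDCK cells that received TGFb. It used 3 of the 6 arrays of the series, chosen by their labels alone: the single array of cells given 5-AZA for 72 hours after TGFb, and both arrays of cells kept in TGFb at 5 ng/ml for 30 days with regular subculture. The remaining arrays were 1 of cells 30 days after TGFb withdrawal and 2 of untreated cells, and they served as points of comparison. The 5-AZA and withdrawal cells are listed with the same TGFb exposure, 5 ng/ml for 30 days. MDCK is an established epithelial line from dog kidney, and its total RNA was read on single-colour Affymetrix expression arrays. All cells were grown in DMEM with 10% serum. The labels do not say whether TGFb stayed in the medium during the 5-AZA period, at what dose 5-AZA was used, or whether it was azacytidine or its deoxy form. Nothing states that the replicate arrays stem from separate cultures, so the p-values reflect only how far these samples scattered, and that scatter may be technical.

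Azacytidine and its deoxy form are cytidine analogs that are built into newly made nucleic acid. Once in DNA they trap DNA methyltransferases, and DNMT1, which copies methylation marks onto the new strand after replication, is depleted as a protein, so methylation is diluted as cells divide. Genes of meiosis and of the piRNA pathway are known to be kept silent in somatic cells by methylated promoters, and many of them are a standard readout of lost methylation. TGFb drives epithelial cells towards a mesenchymal state, in which E-cadherin is repressed by ZEB1 and ZEB2. Arrays of this kind read transcripts, so neither DNA methylation nor the methyltransferase proteins were measured.

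The deposited value of a probe set is a log2 signal, and every level below is on that scale. A difference is the 5-AZA array minus the mean of the TGFb arrays, in log2 units, with the standard error of the limma fit after ±. A gene was called when its limma p-value, adjusted by Benjamini-Hochberg over all 32293 probe sets, was under 0.05. Only called genes are said to have risen or fallen. Array medians lay between 4.97 and 5.01, and the limit of detection is unknown. Pearson's r across all probe sets was 0.968 and 0.970 between the 5-AZA array and the TGFb arrays, and 0.987 between the TGFb arrays. In bulk RNA, fewer cells with a transcript and less of it per cell cannot be told apart.

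After 5-AZA, 276 probe sets rose (0.855% of all) and 61 fell (0.189%), 1.04% in either direction. Among 15947 named genes, 184 rose (1.15%) and 19 fell (0.119%), 1.27% in either direction. The median difference of all named genes was 0.00, with 7914 positive and 8033 negative differences. At an unadjusted p under 0.05 in limma the split was closer to even, with 2029 probe sets higher and 2392 lower. Of the 15947 named genes, 1111 were higher and 1125 lower at that threshold, and the unadjusted counts of the lists below are to be read beside these. Of the 184 genes that rose, 182 had their highest signal of all 6 arrays on the 5-AZA array, and all 19 genes that fell had their lowest signal there. Among all 15947 named genes, the 5-AZA array was the highest for 3281 and the lowest for 3648. The call itself largely requires a signal beyond both TGFb arrays. The genes that rose started from dim signals. Their median signal was 6.63 on the 5-AZA array, 3.73 over the TGFb arrays and 3.50 over the untreated arrays. For the genes that fell the same medians were 6.34 on the 5-AZA array, 7.97 over the TGFb arrays and 7.58 over the untreated arrays. For all named genes they were 5.46, 5.42 and 5.45 in that order.

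These calls rest on a single 5-AZA array, which was assumed to vary like the replicated groups. The fit had 2 residual degrees of freedom. Leaving out TGFb replicate 1 left 0 called probe sets (smallest adjusted p = 0.0652, with 3233 at an unadjusted p under 0.05 in limma), and leaving out TGFb replicate 2 also left 0 (smallest adjusted p = 0.0596, with 3467). Every call named below is therefore lost without either TGFb array. With either untreated array left out, the spread came from the TGFb pair alone, so those runs are the same fit and not separate checks. Leaving out either untreated array left 137, of which 133 were higher.

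**Figure D1:**
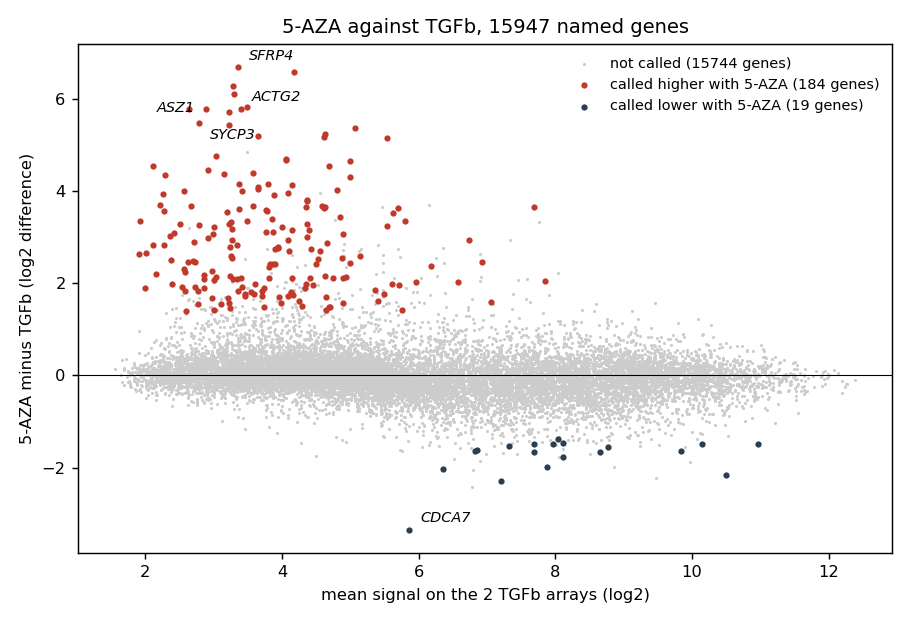
Each point is 1 of 15947 named genes, with the mean log2 signal of the 2 TGFb arrays on the x axis and the log2 difference of the 5-AZA array from that mean on the y axis. The 184 genes called higher (red) lie mostly at the dim end, up to a difference of 6.68 for SFRP4, and the 19 called lower (dark) are spread over brighter signals, down to −3.34 for CDCA7.

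SFRP4, a secreted antagonist of Wnt ligands, had the largest difference of all. It stood at 10.04 on the 5-AZA array, against 3.43 and 3.29 on the TGFb arrays, 3.60 after withdrawal and 3.94 and 3.35 in untreated cells. It was thus bright on the 5-AZA array alone, and the difference was 6.68 ± 0.29 (adjusted p = 0.00436), a ratio of 103. TKTL1, a transketolase-like enzyme, was at 10.75 on the 5-AZA array against 4.12 and 4.22 on the TGFb arrays (difference 6.58 ± 0.25). UCHL1, a ubiquitin hydrolase abundant in neurons and germ cells, was at 9.40 with 5-AZA and at 3.37 and 3.23 with TGFb (6.09 ± 0.18). For these genes the TGFb, withdrawal and untreated arrays lay together and far below the 5-AZA array.

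The other genes among the 15 largest increases were of mixed function. GALNT5 starts mucin-type O-glycosylation (6.26 ± 0.31), and TFPI inhibits the tissue factor pathway of coagulation (5.81 ± 0.29). Receptors among them were EDNRA for endothelin (5.77 ± 0.21), ACVR1C, a type I receptor of the TGFb superfamily (5.18 ± 0.29), and the decoy interleukin-1 receptor IL1R2 (5.17 ± 0.29). Secreted matrix proteins were CTHRC1 (5.71 ± 0.18) and TGFBI, named for its induction by TGFb. TGFBI was at 10.42 on the 5-AZA array, against 4.95 and 5.17 on the TGFb arrays, 4.46 after withdrawal and 4.65 and 3.92 in untreated cells, and differed by 5.36 ± 0.34 (adjusted p = 0.00698). The TGFb arrays thus stood a little above the untreated and withdrawal arrays, and the 5-AZA array far above all of them. PSMA8, a proteasome subunit of the testis (5.43 ± 0.28), and FANK1, expressed in the testis (5.24 ± 0.47, adjusted p = 0.0199, and 0.0823 with either untreated array left out), were the others, beside ASZ1, ACTG2 and SYCP3, which are described with their groups.

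Meiotic genes had the largest share of called members among the 32 lists examined. The lists were chosen with earlier results of these data known, and SYCP3 was a marker given in advance. The shares of this and the following lists are therefore descriptions and not tests. Of 31 measured genes of meiotic chromosomes and recombination, 10 rose (32.3%), none fell and 21 did not pass, beside 1.15% of all named genes that rose. The list's median difference was 0.33, beside 0.00 for all genes, with 22 positive and 9 negative differences. SYCP3, which builds the lateral element of the synaptonemal complex, was at 8.27 on the 5-AZA array, against 2.69 and 2.90 on the TGFb arrays, 2.50 after withdrawal and 2.92 and 2.57 in untreated cells. All arrays without 5-AZA lay close together and far below, and the difference was 5.47 ± 0.23 (adjusted p = 0.00436). SPO11, which makes the DNA breaks that start meiotic recombination, was at 6.66 with 5-AZA and at 2.11 and 2.12 with TGFb (4.54 ± 0.19). SYCP1, the transverse filament of the complex, was at 5.79 with 5-AZA and at 2.48 and 2.55 with TGFb (3.28 ± 0.17). TERB2, which links meiotic telomeres to the nuclear envelope, was at 5.82 with 5-AZA and at 2.32 and 2.21 with TGFb (3.56 ± 0.18). These germline genes had no array of another condition near the 5-AZA signal.

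The other meiotic genes that rose, named after their values were seen, had smaller differences. They were MEIOC, needed for meiotic prophase (3.27), the TERB2 partner TERB1 (3.03), the axis protein HORMAD1 (2.65), the recombinase DMC1 (1.84), MEI1, needed for meiotic breaks (1.72), and the cohesin SMC1B (1.67). TEX12 of the central element differed by 1.27 ± 0.18 and just missed the call (adjusted p = 0.0591). The inducer of meiosis STRA8 was at 3.41 on the 5-AZA array and at 3.48 and 3.53 on the TGFb arrays. REC8, the meiotic kleisin, was at 5.05 with 5-AZA and at 5.71 and 5.38 with TGFb, and MND1, a DMC1 cofactor, was at 7.85 with 5-AZA and at 8.72 and 8.89 with TGFb. Some members thus had 5-AZA signals below both TGFb arrays. With either untreated array left out 7 of the list were called, and with either TGFb array left out 0 were. With probe sets of below-median mean signal dropped, 8 of the 31 stayed in the test and 0 of them were called.

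**Figure D2:**
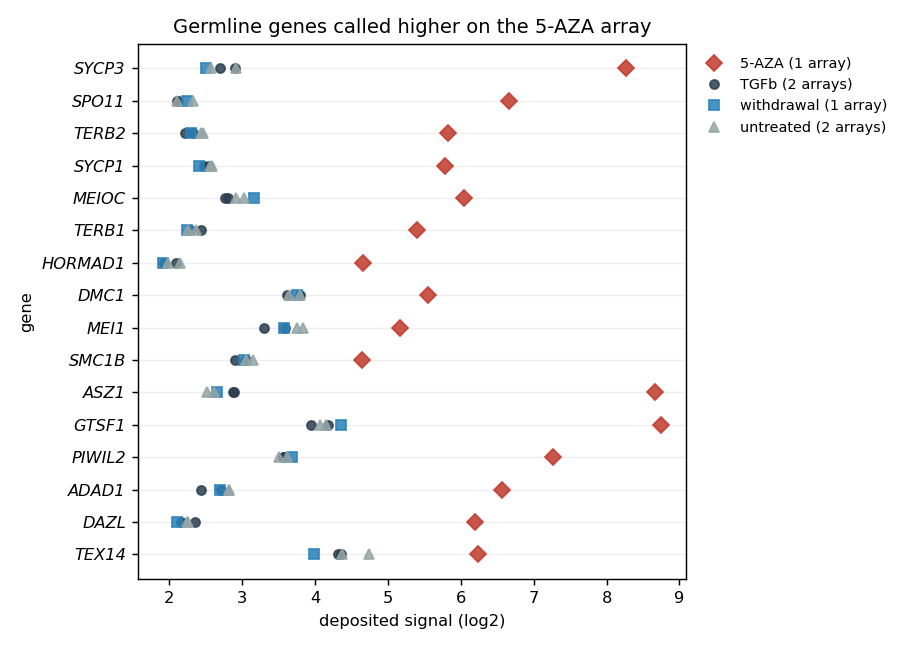
Log2 signal (x axis) on each of the 6 arrays for the meiotic, piRNA and germ cell genes called higher with 5-AZA (y axis), with the 5-AZA array as red diamonds and the TGFb, withdrawal and untreated arrays as circles, squares and triangles. In every row the red diamond lies to the right of all other arrays, as for SYCP3 at 8.27 against 2.50 to 2.92 elsewhere.

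The piRNA pathway uses small RNAs bound to PIWI proteins to silence transposons in germ cells. Of 20 measured members 3 rose (15%) and none fell, with 16 positive and 4 negative differences and a median of 0.49. ASZ1, which sits on the mitochondrial membrane where piRNAs are processed, was at 8.66 on the 5-AZA array, against 2.88 and 2.89 on the TGFb arrays, 2.66 after withdrawal and 2.62 and 2.52 in untreated cells (5.78 ± 0.18, adjusted p = 0.00436). GTSF1, a cofactor of PIWI proteins, was at 8.75 with 5-AZA, against 3.94 and 4.18 with TGFb, 4.36 after withdrawal and 4.15 and 4.07 in untreated cells (4.69 ± 0.20). The PIWI protein PIWIL2 was at 7.26 with 5-AZA, against 3.58 and 3.56 with TGFb, 3.69 after withdrawal and 3.51 and 3.61 in untreated cells (3.68 ± 0.18). Each was separated from all other arrays by over 3 log2 units. Among members that did not pass, the tudor protein RNF17 differed by 1.35 ± 0.19 (adjusted p = 0.0638), the germ cell helicase DDX4 by 0.94 ± 0.19 (adjusted p = 0.127) and TDRD1 by 0.37 ± 0.17 (adjusted p = 0.450). With either untreated array left out 3 of the list were called.

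Of 28 measured genes of germ cell identity and cancer-testis families, 3 rose (10.7%) and none fell, with a median of 0.06. DAZL, an RNA-binding protein that marks germ cells, was at 6.20 on the 5-AZA array, against 2.16 and 2.36 with TGFb, 2.10 after withdrawal and 2.24 and 2.26 in untreated cells (3.94 ± 0.19). ADAD1, a testis RNA-binding protein (3.99 ± 0.20), and TEX14, which keeps bridges between germ cells open (1.89 ± 0.22, adjusted p = 0.0402), were the others. With either untreated array left out 2 of the list were called, and TEX14 was lost (adjusted p = 0.0745). Pluripotency and primordial germ cell genes of the list did not pass, with PRDM14 at 3.23 on the 5-AZA array and 3.40 and 3.64 on the TGFb arrays, NANOS3 at 4.79 against 4.69 and 5.11, and LIN28A at 3.18 against 3.18 and 3.42. Of 15 measured members of the complexes known to repress germline genes in somatic cells (PRC1.6 and its partners), 0 were called in limma and 2 were lower at an unadjusted p under 0.05. The largest differences were those of the corepressor TRIM28 (−0.57 ± 0.18, adjusted p = 0.269) and of the ubiquitin ligase RNF2 (0.49 ± 0.20, adjusted p = 0.376).

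**Figure D3:**
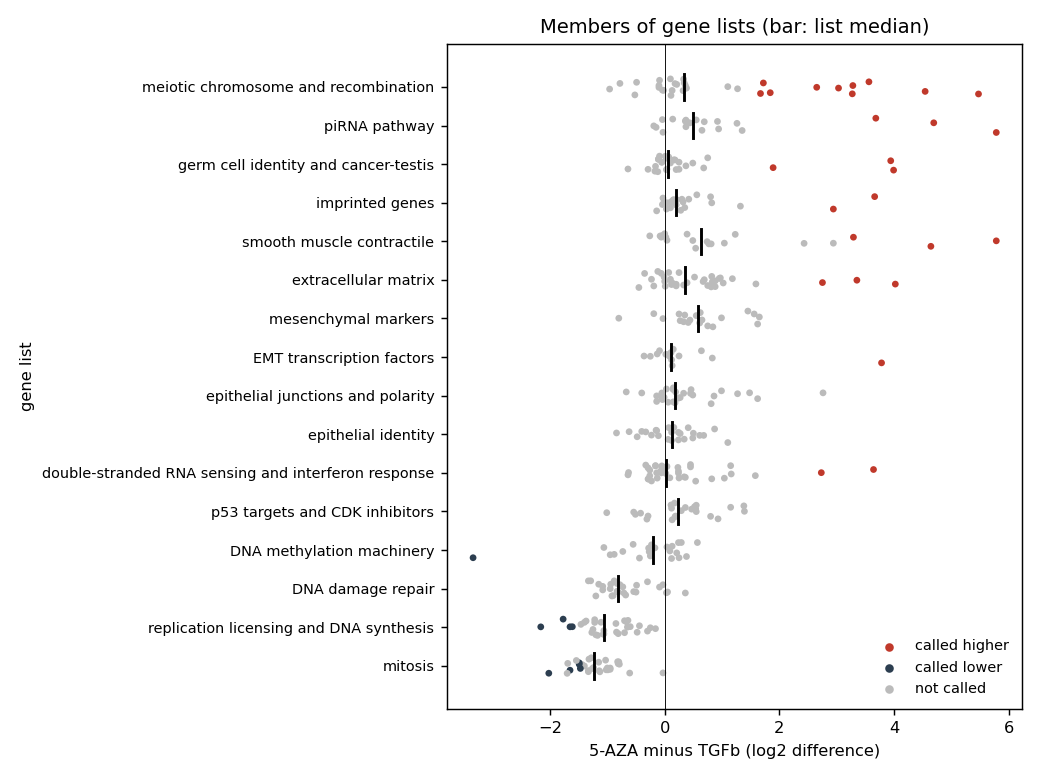
Log2 difference of the 5-AZA array from the TGFb mean (x axis) for the members of 16 gene lists (y axis), each point a gene, with list medians as black bars. Called genes (red higher, dark lower) form a long right tail in the germline lists, while all members of the replication and mitosis lists lie below 0, with medians of −1.06 and −1.24.

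CDCA7 fell most of all named genes. It encodes a zinc finger partner of the remodeler HELLS, and mutations of either gene cause a human syndrome with lost methylation at pericentromeric repeats. CDCA7 was at 2.51 on the 5-AZA array, against 5.79 and 5.93 on the TGFb arrays, 7.0 after withdrawal and 6.66 and 6.77 in untreated cells. The 5-AZA array was far below every other array, and the difference was −3.34 ± 0.18 (adjusted p = 0.00552), a ratio of 10.2. CDCA7 was the only called member of 22 genes of the DNA methylation machinery, whose median was −0.20, and 5 of the 22 were lower at an unadjusted p under 0.05. It was called with either untreated array left out and not without either TGFb array (adjusted p = 0.0729 and 0.0750).

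The other methylation genes had smaller differences. DNMT1 was at 8.69 on the 5-AZA array, against 9.63 and 9.63 on the TGFb arrays, 10.02 after withdrawal and 9.74 and 9.56 in untreated cells. Its 5-AZA signal was the lowest of the 6, but the difference of −0.95 ± 0.18 did not pass (adjusted p = 0.114). UHRF1, which brings DNMT1 to newly replicated DNA, was at 6.03 with 5-AZA, against 7.18 and 6.98 with TGFb, 7.28 after withdrawal and 6.33 and 6.06 in untreated cells (−1.06 ± 0.21, adjusted p = 0.124). That 5-AZA signal was close to the untreated ones. HELLS differed by −0.88 ± 0.21 (adjusted p = 0.178). The de novo methyltransferases DNMT3A (0.57 ± 0.22, adjusted p = 0.349) and DNMT3B (−0.28 ± 0.26, adjusted p = 0.727) and the demethylase TET1 (0.38 ± 0.27, adjusted p = 0.619) did not pass either.

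Imprinted genes are expressed from the copy of a given parent, under control of methylation set in the germ line. Of 26 measured, 2 rose (7.69%) and none fell, and 22 differences were positive, with a median of 0.20. MEST, expressed from the paternal copy in mouse and human, was at 11.35 on the 5-AZA array, against 7.80 and 7.58 with TGFb, 5.16 after withdrawal and 6.46 and 6.26 in untreated cells (3.66 ± 0.21, adjusted p = 0.00559). PEG3, a zinc finger protein also expressed paternally in those species, was at 7.02 with 5-AZA, against 4.07 and 4.10 with TGFb, 4.52 after withdrawal and 4.47 and 4.20 in untreated cells (2.94 ± 0.20, adjusted p = 0.00860). MEST was already brighter with TGFb than in untreated cells, and PEG3 was not. H19 was at 4.07 with 5-AZA and at 3.51 and 3.51 with TGFb, IGF2 at 5.14 with 5-AZA and at 5.05 and 5.01 with TGFb, and neither passed.

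Of 24 tumour suppressor genes known for promoter methylation in cancers, 2 rose (8.33%) and none fell, with a median of 0.15. They were UCHL1 and the cadherin CDH13, which was at 6.24 with 5-AZA, against 3.68 and 3.97 with TGFb, 3.96 after withdrawal and 4.07 and 3.52 in untreated cells (2.41 ± 0.29, adjusted p = 0.0428). CDH13 was not called with either untreated array left out, which left 1 call. The classical examples RASSF1 (4.91 with 5-AZA, 4.8 and 5.30 with TGFb), MGMT (5.05 with 5-AZA, 4.72 and 5.32 with TGFb) and HIC1 (3.31 with 5-AZA, 3.56 and 3.34 with TGFb) had 5-AZA signals within or next to the range of the TGFb arrays. These examples were chosen after their values were seen. Across the list 17 differences were positive and 7 negative, with 5 higher and 0 lower at an unadjusted p under 0.05 in limma. Of 17 genes that carry, activate or break down cytidine analogs, 0 were called in limma and 3 were lower at an unadjusted p under 0.05, with SAMHD1, a hydrolase of nucleotide analogs, at 0.90 ± 0.42 and thymidylate synthase (TYMS) at −0.89 ± 0.24.

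Genes of DNA replication had negative differences without exception among those examined. Of 31 measured genes of replication licensing and DNA synthesis, 4 fell (12.9%, beside 0.119% of all named genes), none rose and all 31 differences were negative, from −2.16 to −0.16, with a median of −1.06. CDC6, which loads the replicative helicase, was at 8.33 with 5-AZA, against 10.47 and 10.51 with TGFb, 10.42 after withdrawal and 10.09 and 10.53 in untreated cells (−2.16 ± 0.24, adjusted p = 0.0363). The helicase subunits MCM7 (6.04 with 5-AZA, 7.73 and 7.66 with TGFb, −1.65 ± 0.17) and MCM2 (5.24 with 5-AZA, 6.85 and 6.84 with TGFb, −1.61 ± 0.20) fell, as did GINS4 of the helicase cofactor GINS (6.34 with 5-AZA, 8.0 and 8.22 with TGFb, −1.77 ± 0.21). In each of these the 5-AZA array was the lowest of the 6. Most members did not pass alone, and 27 of the 31 were lower at an unadjusted p under 0.05. The mean signal of the list was 7.22 on the 5-AZA array, 8.17 and 8.29 on the TGFb arrays, 8.24 after withdrawal and 7.90 and 8.05 in untreated cells.

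The differences of mitotic genes were negative as well. Of 31 measured, 5 fell (16.1%), none rose and all 31 differences were negative, from −2.02 to −0.03, with a median of −1.24. At an unadjusted p under 0.05, 29 of the 31 were lower. KIF2C, which depolymerises microtubules at centromeres, was at 4.33 with 5-AZA, against 6.42 and 6.28 with TGFb, 6.32 after withdrawal and 5.91 and 6.21 in untreated cells (−2.02 ± 0.21, adjusted p = 0.0325). The spindle checkpoint kinase TTK was at 7.0 with 5-AZA, against 8.65 and 8.65 with TGFb, 8.27 after withdrawal and 8.69 and 8.53 in untreated cells (−1.65 ± 0.18). KIF23, needed for cytokinesis (−1.49 ± 0.18), PLK4, which starts centriole duplication (−1.49 ± 0.19), and PLK1, a kinase of mitotic entry and exit (−1.47 ± 0.18), were the others. The proliferation marker MKI67 was at 8.89 with 5-AZA and at 10.24 and 10.07 with TGFb, and missed the call (−1.26 ± 0.18, adjusted p = 0.0678). No call of either list was left with any of the TGFb or untreated arrays left out (0 each). Across the settings run on all 6 arrays, the replication calls numbered from 3 after quantile normalization to 16 with only named genes tested, and the mitosis calls from 2 after quantile normalization to 24 with the probe sets of a gene averaged.

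The 15 largest decreases held 7 further genes outside these lists. METTL4, an adenine methyltransferase, was at 4.91 with 5-AZA and at 7.33 and 7.08 with TGFb (−2.29 ± 0.22, adjusted p = 0.0255). HMGB2, a chromatin protein (−1.64 ± 0.20), the kinetochore protein CENPT (−1.63 ± 0.21), FBXO5, an inhibitor of the anaphase-promoting complex (−1.54 ± 0.18), and the histone chaperone ASF1B (−1.49 ± 0.18) fell. EFCAB7, of the primary cilium (−1.53 ± 0.19), and CCDC77 (−1.98 ± 0.24) were the others. None of these 7 was called with either untreated array left out, and with a replicate block CENPT, FBXO5, ASF1B and EFCAB7 were not called (adjusted p of 0.0575, 0.0551, 0.0576 and 0.0551). Of 27 DNA repair genes 0 were called in limma, but 24 differences were negative and 17 were lower at an unadjusted p under 0.05, with a median of −0.81. The checkpoint kinase CHEK1 differed by −1.33 ± 0.21 (adjusted p = 0.0776) and the uracil glycosylase UNG by −1.29 ± 0.23 (adjusted p = 0.0968). PARP2, a repair gene outside this list and chosen after its value was seen, fell (6.65 with 5-AZA, 7.99 and 8.08 with TGFb, −1.38 ± 0.18).

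**Figure D4:**
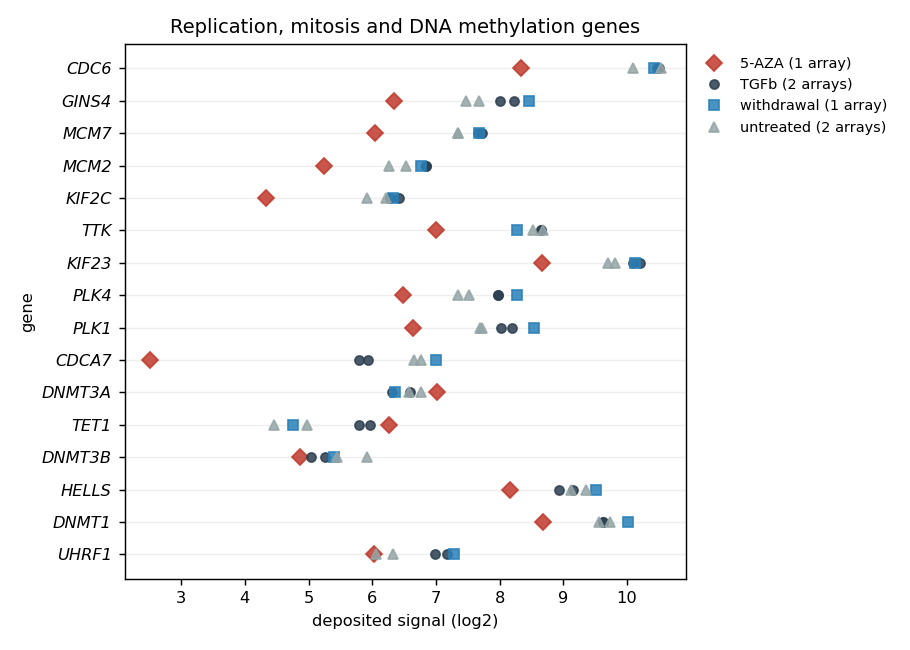
Log2 signal (x axis) on each of the 6 arrays for the called replication, mitosis and DNA methylation genes and for 6 further methylation genes (y axis), with symbols by condition. The red diamond of the 5-AZA array is leftmost for all called genes, with CDCA7 at 2.51 against 5.79 to 7.0 elsewhere. It lies slightly to the right of all other arrays for DNMT3A and TET1, and slightly to the left of them for DNMT3B.

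Targets of p53 and CDK inhibitors were mostly a little higher, and 0 of 24 were called in limma. Their median was 0.24, with 18 positive differences and 6 that were higher at an unadjusted p under 0.05. CDKN1A, the p21 inhibitor of cyclin-dependent kinases, was at 9.52 with 5-AZA, against 8.62 and 8.13 with TGFb, 7.64 after withdrawal and 7.82 and 7.66 in untreated cells (1.15 ± 0.26, adjusted p = 0.155). Its 5-AZA signal was the highest of the 6, and it passed only against withdrawal (1.89, adjusted p = 0.0476). ZMAT3 (1.39 ± 0.38) and TP53INP1 (1.38 ± 0.46) had the largest differences. Of 28 apoptosis regulators 0 were called in limma (5 at an unadjusted p under 0.05, 1 higher and 4 lower), with the death receptor FAS at 1.2 ± 0.27 and BIRC5, an inhibitor of apoptosis that peaks in mitosis, at −0.95 ± 0.28. In the stress response list of 24 genes 1 fell, with a median of −0.45. This was the cystine transporter SLC7A11, at 9.49 with 5-AZA, 11 and 10.93 with TGFb, 10.06 after withdrawal and 10.56 and 10.67 in untreated cells (−1.48 ± 0.18, adjusted p = 0.0419), and it was not called with a replicate block (adjusted p = 0.0590) or with either untreated array left out (0.0956).

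Genes of the smooth muscle contractile apparatus rose in part. Of 20 measured, 3 rose (15%) and none fell, with 16 positive differences and a median of 0.64. ACTG2, the smooth muscle gamma-actin, was at 9.18 with 5-AZA, against 3.32 and 3.48 with TGFb, 3.31 after withdrawal and 2.73 and 3.45 in untreated cells (5.78 ± 0.33, adjusted p = 0.00583). TPM2, a tropomyosin, was at 9.64 with 5-AZA, against 4.93 and 5.07 with TGFb, 4.89 after withdrawal and 4.78 and 4.41 in untreated cells (4.64 ± 0.23). The actin-binding calponin CNN1 was at 7.65 with 5-AZA, against 4.40 and 4.32 with TGFb, 4.62 after withdrawal and 4.41 and 4.36 in untreated cells (3.29 ± 0.18). For ACTG2 and CNN1 the TGFb and untreated arrays overlapped, and for TPM2 the TGFb arrays stood slightly above the untreated ones.

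ACTA2 and TAGLN, markers of myofibroblasts, had another pattern. ACTA2 was at 10.28 with 5-AZA, against 7.85 and 6.83 with TGFb, 5.57 after withdrawal and 6.24 and 5.04 in untreated cells (2.94 ± 0.63, adjusted p = 0.136). TAGLN was at 8.79 with 5-AZA, against 6.97 and 5.76 with TGFb, 4.73 after withdrawal and 4.47 and 4.25 in untreated cells (2.43 ± 0.51, adjusted p = 0.129). For both, the 5-AZA signal was the highest and the TGFb arrays came next, but the TGFb arrays differed by about 1 log2 unit among themselves and the call was missed. MYH11, the smooth muscle myosin, was at 4.21 with 5-AZA and at 4.39 and 4.14 with TGFb, and LMOD1 at 4.09 with 5-AZA and at 4.11 and 4.23 with TGFb. Of 28 skeletal and cardiac muscle genes 0 were called in limma (4 higher at an unadjusted p under 0.05), with a mean signal of 4.15 on the 5-AZA array and of 4.04 and 3.91 on the TGFb arrays. The calls on the smooth muscle genes numbered 3 with either untreated array left out.

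Among 36 genes of the extracellular matrix 3 rose (8.33%) and 0 fell, with 28 positive differences and a median of 0.36. FBN1, encoding fibrillin of elastic microfibrils, was at 8.82 with 5-AZA, against 5.08 and 4.53 with TGFb, 4.38 after withdrawal and 3.88 and 3.84 in untreated cells (4.02 ± 0.27, adjusted p = 0.00844). The proteoglycan BGN was at 9.15 with 5-AZA and at 5.92 and 5.69 with TGFb (3.35 ± 0.29), and the gelatinase MMP2 at 7.17 with 5-AZA and at 4.29 and 4.54 with TGFb (2.75 ± 0.20). All 3 were highest on the 5-AZA array. At an unadjusted p under 0.05, 13 of the 36 were higher and 0 lower, and the list's mean signal was 7.85 on the 5-AZA array against 7.27 and 7.15 on the TGFb arrays. Other members did not pass. Of these LUM and COL1A2 were chosen after their values were seen, and LUM was at 12.04 with 5-AZA and at 11.93 and 11.96 with TGFb, COL1A2 at 9.14 with 5-AZA and at 9.31 and 9.21 with TGFb, and FN1, encoding fibronectin, at 12.20 with 5-AZA and at 12.19 and 11.96 with TGFb. With either untreated array left out the list had 2 calls, and MMP2 was lost (adjusted p = 0.0504).

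Mesenchymal markers had 17 positive and 3 negative differences among 20 genes, with a median of 0.58, and 0 were called in limma (10 higher and 1 lower at an unadjusted p under 0.05). The collagen receptor DDR2 was at 9.22 with 5-AZA and at 7.60 and 7.54 with TGFb (1.65 ± 0.30, adjusted p = 0.0970), and VIM, the intermediate filament vimentin, at 12.08 with 5-AZA and at 12.26 and 12.28 with TGFb (−0.19 ± 0.17). PDGFRA, a receptor of platelet-derived growth factor, was at 7.0 with 5-AZA, against 5.39 and 5.37 with TGFb, 8.01 after withdrawal and 8.39 and 7.52 in untreated cells (1.62 ± 0.38). Its 5-AZA signal thus lay between the TGFb arrays and the others. Of 28 TGFb signalling genes 0 were called in limma (8 higher at an unadjusted p under 0.05), with a median of 0.20. The activin antagonist FST differed by 2.61 ± 0.55 (adjusted p = 0.132) and the co-receptor TGFBR3 by 1.41 ± 0.23 (adjusted p = 0.0776). The transcription factor PRRX1, a regulator of mesenchymal fate, was the only called gene of 15 EMT transcription factors. It was at 8.14 with 5-AZA, against 4.35 and 4.39 with TGFb, 4.27 after withdrawal and 4.08 and 4.12 in untreated cells (3.78 ± 0.17, adjusted p = 0.00436), so TGFb alone had left it near the untreated signal.

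The label places the 5-AZA cells after TGFb, and it was checked against E-cadherin, its repressors and EPCAM. CDH1, encoding E-cadherin, was at 6.98 with 5-AZA, against 6.25 and 7.24 with TGFb, 11.34 after withdrawal and 11.64 and 11.43 in untreated cells. The 5-AZA array lay between the TGFb arrays and far below the others. The difference from TGFb was 0.24 ± 0.43 (95% interval −0.86 to 1.33, adjusted p = 0.873), and that from withdrawal −4.36 (adjusted p = 0.0230). The CDH1 repressor ZEB1 was at 8.74 with 5-AZA, against 8.79 and 8.50 with TGFb, 3.39 after withdrawal and 4.21 and 3.08 in untreated cells (0.09 ± 0.48, 95% interval −1.13 to 1.31). ZEB2 was at 9.10 with 5-AZA, against 9.02 and 7.91 with TGFb, 3.92 after withdrawal and 4.97 and 4.30 in untreated cells (0.64 ± 0.53). The surface marker EPCAM was at 7.90 with 5-AZA, against 6.46 and 7.73 with TGFb, 10.45 after withdrawal and 10.44 and 10.39 in untreated cells (0.81 ± 0.52, 95% interval −0.52 to 2.13, adjusted p = 0.588). The uncalled differences changed sign for CDH1 without TGFb replicate 1 (−0.26) and for ZEB1 without TGFb replicate 2 (−0.05). These intervals leave room for differences of over 1 log2 unit either way for ZEB1.

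Of 29 genes of epithelial junctions and polarity 0 were called against TGFb in limma (6 higher and 1 lower at an unadjusted p under 0.05), with 21 positive differences and a median of 0.18. The tight junction gene CLDN1 had the largest difference, at 9.10 with 5-AZA, 5.84 and 6.86 with TGFb, 11.03 after withdrawal and 10.81 and 10.92 in untreated cells (2.76 ± 0.43, adjusted p = 0.0740). MARVELD2, encoding tricellulin, was at 5.55 with 5-AZA, 3.70 and 4.16 with TGFb, 6.23 after withdrawal and 6.28 and 6.17 in untreated cells (1.62 ± 0.25, adjusted p = 0.0732). Both were above the TGFb arrays and below all withdrawal and untreated signals, without passing the test. DSC3, a desmosomal cadherin outside this list and chosen after its value was seen, rose (2.05 ± 0.23). It was at 9.9 with 5-AZA, 7.78 and 7.92 with TGFb, 10.05 after withdrawal and 10.02 and 9.65 in untreated cells. Of 26 epithelial identity genes 0 were called in limma (2 higher and 2 lower at an unadjusted p under 0.05), with a median of 0.13. The keratin KRT19 was at 5.67 with 5-AZA, 4.36 and 5.23 with TGFb, 10.34 after withdrawal and 10.33 and 10.17 in untreated cells (0.87 ± 0.38, adjusted p = 0.415), and PLS1, encoding the microvillus protein plastin 1, differed by 1.10 ± 0.66 (adjusted p = 0.564).

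The 5-AZA and withdrawal arrays both followed TGFb, and the fit set them against each other with 1 array each. This contrast also holds the difference between withdrawal and TGFb. Withdrawal minus TGFb had medians of 1.49 for epithelial identity, 1.03 for junction, −0.42 for matrix and −0.32 for smooth muscle genes. The medians of 5-AZA minus TGFb were 0.13, 0.18, 0.36 and 0.64 in that order. Against withdrawal, 673 probe sets were higher on the 5-AZA array (2.08%) and 309 lower (0.957%), together 3.04%, and among named genes 454 were higher (2.85%) and 196 lower (1.23%), together 4.08%. Without either TGFb array 277 probe sets were called, and without either untreated array 595. Of the epithelial identity genes 9 were lower and none higher on the 5-AZA array (median −1.57), and of the junction genes 7 were lower and 1 higher (median −0.71). Of the matrix genes 14 were higher and none lower (median 1.17), and of the smooth muscle genes 7 were higher and none lower (median 1.25). The meiotic list had 12 higher and none lower, and CDCA7 was lower by −4.49 (adjusted p = 0.00492).

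**Figure D5:**
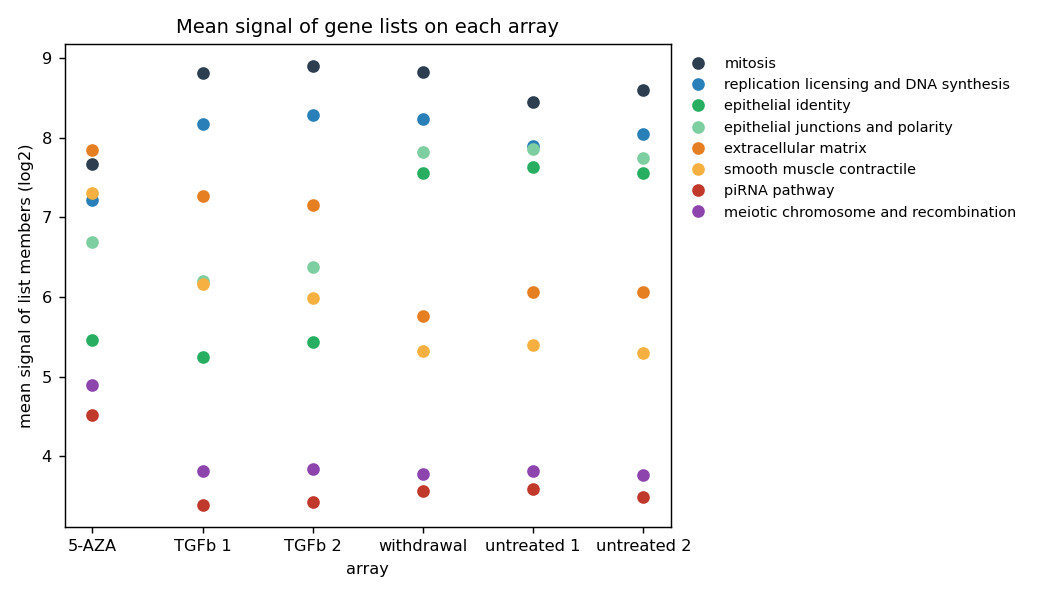
Mean log2 signal of the measured members of 8 gene lists (y axis) on each of the 6 arrays (x axis), each point 1 list on 1 array, with heights to be read across arrays and not between lists. The meiotic list is at 4.89 on the 5-AZA array and 3.77 to 3.84 elsewhere, the mitosis list at 7.67 against 8.45 to 8.90, and the epithelial identity list at 5.46 beside 5.25 and 5.44 with TGFb and 7.56 to 7.63 on the other arrays.

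Genes that sense double-stranded RNA or respond to interferon are often followed after demethylating drugs. Of 38 measured, 2 rose (5.26%) and none fell, with 20 positive and 18 negative differences and a median of 0.02. OAS2, an antiviral enzyme activated by double-stranded RNA, was at 7.99 with 5-AZA, against 4.35 and 4.35 with TGFb, 6.05 after withdrawal and 10.11 and 9.56 in untreated cells (3.64 ± 0.27, adjusted p = 0.0104). The chemokine CXCL10 was at 6.62 with 5-AZA, against 3.62 and 4.15 with TGFb, 3.51 after withdrawal and 6.61 and 6.04 in untreated cells (2.73 ± 0.35, adjusted p = 0.0473). OAS2 was above TGFb and below untreated cells, and CXCL10 reached the untreated signals. CXCL10 missed the call under 4 other settings (adjusted p of 0.0503 with robust moderation, 0.0564 after quantile normalization, 0.0520 after median centring and 0.0551 with a replicate block), and with either untreated array left out 1 of the 2 calls was left. At an unadjusted p under 0.05, 6 of the 38 were higher and 1 lower. Members that did not pass, chosen after their values were seen, included RSAD2, an antiviral protein, at 3.69 with 5-AZA, 3.89 and 3.96 with TGFb and 10.09 and 8.52 in untreated cells. ISG15, a ubiquitin-like protein, was at 3.55 with 5-AZA, 3.68 and 3.51 with TGFb and 6.23 and 5.46 in untreated cells. In antigen presentation 0 of 22 genes were called in limma, and 0 had an unadjusted p under 0.05. Of 25 inflammatory mediators 0 were called (3 higher at an unadjusted p under 0.05), with the chemokines CXCL8 at 1.75 ± 0.71 and CCL2 at 1.16 ± 0.66. The chemokines CCL7 (2.69 ± 0.33) and CCL22 (2.25 ± 0.26), outside this list and chosen after their values were seen, rose. CCL7 was at 7.24 with 5-AZA and at 4.26 and 4.85 with TGFb, and CCL22 at 4.83 against 2.72 and 2.44.

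The remaining lists had few calls. Among 32 Wnt ligands and antagonists SFRP4 was the only call (3.12%), and the list's median was 0.23. Among 30 kidney tubule genes 1 rose (3.33%), the carbonic anhydrase CA2, at 7.54 with 5-AZA, against 4.51 and 4.29 with TGFb, 3.46 after withdrawal and 2.97 and 3.05 in untreated cells (3.15 ± 0.20, adjusted p = 0.00676). The transporters SLC14A1 (3.51 ± 0.24), SLC9A2 (2.54 ± 0.28), SLC4A4 (2.11 ± 0.27) and SLC22A2 (1.39 ± 0.18) also rose. They are outside the kidney list and were chosen after their values were seen. Of 28 hypoxia and glycolysis genes 0 were called in limma (2 higher and 1 lower at an unadjusted p under 0.05), and the angiogenic factor VEGFC differed by 1.89 ± 1.55, with its TGFb arrays at 4.02 and 7.60. Of 9 housekeeping genes 0 were called (1 lower at an unadjusted p under 0.05), with RPS18 at −0.70 ± 0.26 and TFRC at 0.42 ± 0.22 as the largest differences.

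Markers of other cell types were read from the same arrays. Of 17 leukocyte markers 1 rose, FCER1G, a subunit of the Fc receptor (5.39 with 5-AZA, 3.06 and 3.42 with TGFb, 2.15 ± 0.22, adjusted p = 0.0310), and it was not called with either untreated array left out. The leukocyte antigen PTPRC was at 3.05 with 5-AZA, 2.84 and 2.97 with TGFb and 2.83 to 2.95 on the other arrays, and the list's mean was 4.07 on the 5-AZA array against 3.78 and 3.83 with TGFb. Of 12 endothelial markers 1 rose, the adhesion molecule PECAM1, at 6.57 with 5-AZA, 3.24 and 3.26 with TGFb, 3.41 after withdrawal and 3.62 and 3.38 in untreated cells (3.32 ± 0.20, adjusted p = 0.00602). CDH5, the cadherin that defines endothelium, was at 4.74 with 5-AZA and at 4.63 and 4.54 with TGFb, VWF at 4.27 with 5-AZA and at 4.18 and 4.24 with TGFb, and the list's mean was 5.26 with 5-AZA against 4.67 and 4.72. Of 19 neuronal markers 1 rose, UCHL1, with the list's mean at 4.51 with 5-AZA and at 4.01 and 3.94 with TGFb. PTPRC, CDH5 and VWF, which were chosen after their values were seen, thus stood next to their TGFb signals. FCER1G, PECAM1 and UCHL1 of the same lists rose, and the means of these lists were higher on the 5-AZA array. At an unadjusted p under 0.05, 2 leukocyte, 3 endothelial and 5 neuronal markers were higher and 0 lower. No germ cell preparation was part of the series, and the part of other cells in the germline result was not tested.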

How the data were processed

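Total RNA of MDCK cells was measured on 6 single-colour arrays. The authors deposited 1 log2 signal per probe set and array, made with Affymetrix Expression Console 1.2 per the submitters' processing notes. For the summary method, background correction and log base, the sources used here name nothing, and the values (0.937 to 13.1) were read as log2. The number of arrays limits the precision.

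Group means of all 6 arrays were fitted with limma 3.58.1 in R 4.3.3 (lmFit, eBayes without trend, not robust, 3.10 prior degrees of freedom), with no filter and Benjamini-Hochberg adjustment over 32293 probe sets. The script was tested on simulated data. The platform annotation gave 1 symbol for 16545 probe sets, several for 370 and none for 15378, and the brightest probe set by the mean of 6 arrays stood for each of 15947 genes. Of 878 symbols in 32 lists, 770 were measured.

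The members and the lists were chosen with earlier results of these data known. Named genes were the 15 largest called differences each way, given markers and anchors, and up to 4 called genes each way per list (otherwise the 2 largest differences). Genes outside this rule were chosen after their values were seen. Alternatives changed the moderation, normalization, filter, probe set rule, arrays and replicate block.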

Additional observations from a re-analysis of the deposited data

How the results depend on the processing

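Among the 94 named genes, no called difference from TGFb changed sign under any alternative run. Most settings, such as those for moderation, filter and replicate block, could not change the difference itself. Its sign could change only with the normalization, with averaged probe sets or without a TGFb array. The 337 probe sets called against TGFb became 346 with an intensity trend, 335 with robust moderation, 315 after quantile normalization, 333 after median centring and 360 with identical probe sets used once. They became 110 (59 higher, 51 lower) when probe sets below the median mean signal were dropped, which left 8 meiotic, 3 piRNA and 5 germ cell genes in the test and 0 of them called, 682 (451 higher, 231 lower) when only named genes were tested, 676 with the probe sets of a gene averaged, and 137 in a fit of the 5-AZA and TGFb arrays alone (133 higher, 4 lower). Dropping the dim probe sets removed the meiotic, piRNA and germ cell genes that rose in the main fit, so it could not test their calls. The share of calls that were higher was 81.9% in all probe sets, 53.6% without the dim ones and 66.1% among named genes alone. The single withdrawal array adds nothing to the spread in this fit, so leaving it out could not change these calls. With either untreated array left out, the spread came from the TGFb pair alone. Both of those runs repeat the fit of the 5-AZA and TGFb arrays and are not separate checks. Against withdrawal the 982 calls became 1721 among named genes alone and 1701 with averaged probe sets, and ran from 277 to 595 with an array left out. With only named genes tested, piRNA calls numbered 6, replication calls 16 and mitosis calls 23. The cause of these shifts was not tested, beyond the fewer features or arrays in the fit. The untreated and TGFb arrays share replicate numbers, but the labels do not say that a number marks a pair. Same-numbered deviations correlated at 0.0988 over 2 pairs, and a replicate block moved the counts to 368 and 1189. Signals near the dim end have no stated detection limit, so differences of dim genes may be understated.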

Other observations

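Some called genes outside the lists are given here as values. They were chosen after their values were seen and stand for no group. The testis tudor protein STK31 was at 7.36 on the 5-AZA array, against 3.08 and 2.74 on the TGFb arrays (4.46 ± 0.22, adjusted p = 0.00436 in limma). RBM46, an RNA-binding protein of germ cells (2.30 ± 0.25), TAF7L, a testis transcription factor subunit (1.83 ± 0.18), SLC25A31, the germ cell ADP/ATP carrier (2.45 ± 0.20), and OOEP of the oocyte (1.72 ± 0.20) also rose. LAPTM5, a lysosomal protein of leukocytes, was at 8.27 with 5-AZA and at 4.61 and 4.57 with TGFb (3.68 ± 0.17). LYVE1, the lymphatic hyaluronan receptor, was at 7.37 with 5-AZA and at 4.26 and 4.47 with TGFb (3.00 ± 0.22), and TLR8, an RNA sensor of myeloid cells, at 6.20 with 5-AZA and at 3.35 and 3.17 with TGFb (2.94 ± 0.24).

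LAMA4, a laminin chain, stood highest with 5-AZA, next with TGFb and lowest on the other arrays. It was at 10.66 with 5-AZA, against 5.58 and 5.47 with TGFb, 3.61 after withdrawal and 3.34 and 3.73 in untreated cells (5.14 ± 0.23).

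Among measured genes in the order of RefSeq assembly UU_Cfam_GSD_1.0, 15 of 178 placed genes that rose lay next to another such gene, in 7 runs. Unmeasured genes between neighbours were not counted. The longest run was ADAM19, NIPAL4 and FNDC9, with differences of 1.76, 2.76 and 1.95, and TFPI (5.81) and GULP1 (4.37) were neighbours. Of 133 named genes on chromosome 36, 9 rose (6.77%), beside 1.15% of all named genes. Chromosome 36 was picked because its share was the largest of all chromosomes. This is a description of genes picked by their calls, with no test.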
